A study of Mus musculus with 4 samples.

Results

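Peaks of the LMO2 protein at genes whose descriptions name a transcription factor or a related protein domain made up 62 of 1585 peaks in a ChIP-seq list, at 51 genes. They were those whose annotated gene, the gene with the nearest transcription start site (TSS), had a description with any of 8 terms: transcription factor, zinc finger, homeobox, forkhead, helix-loop-helix, SRY, nuclear receptor or IKAROS. The terms matched 71 peaks. The 9 of Runx1 and Runx3 were left out by the rule, which also names Lyl1, Cbfa2t3 and Smad3, whose descriptions hold none of the terms. The term zinc finger brought in 37 of the 62 peaks, transcription factor 12, forkhead 5, homeobox 4, SRY and nuclear receptor 2 each, helix-loop-helix 1, and IKAROS 0.

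The data came from pro-B(+) cells, an Ebf1-deficient pro-B cell line of C57BL6/J mice raised from fetal liver progenitors, that kept the ability to enter the T-cell lineage. It is a single cell line, and its cell type could not be checked against markers in a list of binding sites. The cells were grown on OP9 stromal cells with SCF, IL-7 and Flt3L, each at 10 ng/ml. There were 2 LMO2 ChIP samples, pulled down with a mixture of 3 antibodies of 2 μg each, and 2 input samples, all from chromatin fixed with DSG and formaldehyde. Both groups are the same line, cultured in the same way, so the lack of Ebf1 is shared by ChIP and input, and no other line or condition was compared. The deposited list held 1585 reproducible LMO2 peaks of 207 bp on mm10, each with 1 score for both replicates together. There is thus no spread between replicates, no depth and no test between samples. Peaks of a single list are not replicates either, so shares carry Wilson 95% intervals that cover counting error only, and no difference between groups of peaks was tested.

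LMO2 is a LIM-domain protein that does not itself touch DNA. It bridges proteins that do, among them basic helix-loop-helix (bHLH) factors, which read the E-box, and GATA factors, and it is known for its place in such complexes in blood stem and progenitor cells and in T-cell leukaemia. A ChIP peak shows where LMO2 was held on chromatin, and not which gene is controlled from there.

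By what their products are known to do, the label fits 32 of the 51 genes if it is read as DNA-binding transcription factors. These 32 belong to families of DNA-binding transcription factors and held 37 peaks. The other 25 peaks lay at 19 genes outside those families. Some of these act in transcription, such as Gtf2a1, a general transcription factor gene, and Ncoa4, a nuclear receptor coactivator gene. Others share only a word with those families. Tifab has a forkhead-associated domain, which binds phosphorylated peptides, and is not a forkhead factor. Zfp36, Zfp36l2 and Zc3h12a carry CCCH fingers, which bind RNA. Zdhhc7 and Zdhhc19 encode palmitoyltransferases, and Sox5os3, Dlx4os, Fhad1os1 and Pou5f1-rs4 are non-coding genes or a pseudogene.

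The reference sequences of 12 peaks are printed 5′ to 3′ on the plus strand of GRCm38 (mm10), read from the RefSeq assembly. Capitals mark the RUNX word TGTGGT, the ETS word CTTCCT and the bHLH word CAGCTG on either strand (ACCACA and AGGAAG are the first 2 read on the other strand, and CAGCTG is its own reverse complement). The 4 highest-scoring peaks are shown first, since they differ in which words they hold.
Tifab (chr13:56159176-56159382): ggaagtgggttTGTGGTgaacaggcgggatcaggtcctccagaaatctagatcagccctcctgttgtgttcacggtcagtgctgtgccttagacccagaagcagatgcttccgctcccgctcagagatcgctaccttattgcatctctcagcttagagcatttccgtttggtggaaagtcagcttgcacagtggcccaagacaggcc
Zmynd8 (chr2:165793352-165793558): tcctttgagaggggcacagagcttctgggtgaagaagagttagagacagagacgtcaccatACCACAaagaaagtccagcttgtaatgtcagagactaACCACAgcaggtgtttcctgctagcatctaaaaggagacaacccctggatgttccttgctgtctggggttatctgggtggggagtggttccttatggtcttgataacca
Dbx1 (chr7:49633416-49633622): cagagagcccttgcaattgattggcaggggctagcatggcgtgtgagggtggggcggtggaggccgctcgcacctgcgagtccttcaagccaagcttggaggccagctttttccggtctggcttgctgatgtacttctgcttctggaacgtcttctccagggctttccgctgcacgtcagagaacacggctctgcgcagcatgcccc
Zdhhc7 (chr8:120050021-120050227): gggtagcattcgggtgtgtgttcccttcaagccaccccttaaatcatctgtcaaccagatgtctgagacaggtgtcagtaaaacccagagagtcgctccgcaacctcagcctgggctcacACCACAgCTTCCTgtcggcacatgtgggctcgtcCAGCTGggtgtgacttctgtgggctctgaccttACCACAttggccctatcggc

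The next set shows peaks at regulators of blood or lymphoid cells, since no word is common to all of them.
Tcf7 (chr11:52318494-52318700): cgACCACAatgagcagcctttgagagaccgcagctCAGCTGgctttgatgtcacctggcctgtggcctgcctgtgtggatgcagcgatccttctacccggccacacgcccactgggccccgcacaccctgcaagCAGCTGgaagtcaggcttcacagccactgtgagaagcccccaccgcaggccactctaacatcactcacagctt
Bach2, nearer the outermost gene start (chr4:32258229-32258435): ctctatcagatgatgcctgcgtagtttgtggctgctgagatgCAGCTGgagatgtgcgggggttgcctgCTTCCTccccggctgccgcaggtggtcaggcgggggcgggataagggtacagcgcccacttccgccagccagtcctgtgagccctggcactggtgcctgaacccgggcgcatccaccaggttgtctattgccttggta
Bach2, farther from it (chr4:32343840-32344046): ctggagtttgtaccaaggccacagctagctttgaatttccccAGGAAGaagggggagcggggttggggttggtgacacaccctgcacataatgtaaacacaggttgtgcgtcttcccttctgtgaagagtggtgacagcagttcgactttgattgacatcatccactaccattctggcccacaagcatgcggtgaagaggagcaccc
Bcl11a, the peak farther from the gene (chr11:24243035-24243241): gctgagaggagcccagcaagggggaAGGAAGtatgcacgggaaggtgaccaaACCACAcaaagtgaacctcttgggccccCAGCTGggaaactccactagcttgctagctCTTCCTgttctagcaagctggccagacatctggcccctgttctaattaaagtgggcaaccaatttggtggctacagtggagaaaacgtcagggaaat
E2f2 (chr4:136177929-136178135): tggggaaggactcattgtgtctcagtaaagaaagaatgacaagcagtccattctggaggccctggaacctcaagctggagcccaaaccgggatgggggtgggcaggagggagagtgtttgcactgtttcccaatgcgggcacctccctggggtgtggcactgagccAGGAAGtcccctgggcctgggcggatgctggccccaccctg
Runx2 (chr17:44654620-44654826): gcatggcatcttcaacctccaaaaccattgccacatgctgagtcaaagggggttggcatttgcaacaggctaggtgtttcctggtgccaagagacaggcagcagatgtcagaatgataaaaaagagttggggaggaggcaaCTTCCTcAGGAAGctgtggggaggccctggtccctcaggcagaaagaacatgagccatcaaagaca

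The last set shows a peak beside an RNA-decay gene with paired bHLH words around an ETS word, and a peak with all 3 words away from its centre.
Zc3h12a (chr4:125118142-125118348): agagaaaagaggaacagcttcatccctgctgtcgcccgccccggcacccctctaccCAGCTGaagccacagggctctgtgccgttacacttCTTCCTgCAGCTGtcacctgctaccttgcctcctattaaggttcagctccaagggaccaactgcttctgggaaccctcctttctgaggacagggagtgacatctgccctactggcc
Zswim2 (chr2:84020051-84020257): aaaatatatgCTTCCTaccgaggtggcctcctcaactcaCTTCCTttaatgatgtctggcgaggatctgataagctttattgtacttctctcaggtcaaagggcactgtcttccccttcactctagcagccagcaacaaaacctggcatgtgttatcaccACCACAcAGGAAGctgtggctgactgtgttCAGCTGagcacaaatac

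The peak score is the normalized score of the peak caller, of unstated scaling, and only peaks of at least 15 are listed. Scores at these genes ran from 15, the floor of the list, to 68.2, with a median of 18.9 (95% interval of the median 17.3 to 21.1). The other 1523 peaks had a median of 20.5 (19.9 to 21.0) and reached 162.4. Of the 62 peaks, 36 scored under 20, and 24 (38.7%, 27.6 to 51.2) reached the median of the whole list, against 50.9% (48.4 to 53.4) of the other peaks. A score of 30 or more was held by 7 of the 62 (11.3%, 5.58 to 21.5) and by 335 of the other 1523 (22.0%, 20.0 to 24.1). The first 100 peaks of the list by score included 3 of them. For the median, the share at the list median and the share of 30 or more, the intervals of the 62 and of the other peaks overlap. With the 5 left-out genes kept, 82 peaks at 56 genes had a median score of 20.35, near the 20.5 of the other peaks. That set also holds the peaks of Lyl1, Cbfa2t3 and Smad3, which the terms do not match. The median of the 71 matched peaks alone was not computed, so what the omission did to the median was not tested. Focus ratios, the fraction of a peak's reads that lie where a single site would place them, had a median of 0.799 (0.767 to 0.813) here and 0.788 (0.785 to 0.792) elsewhere, and these intervals overlap.

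**Figure D1:**
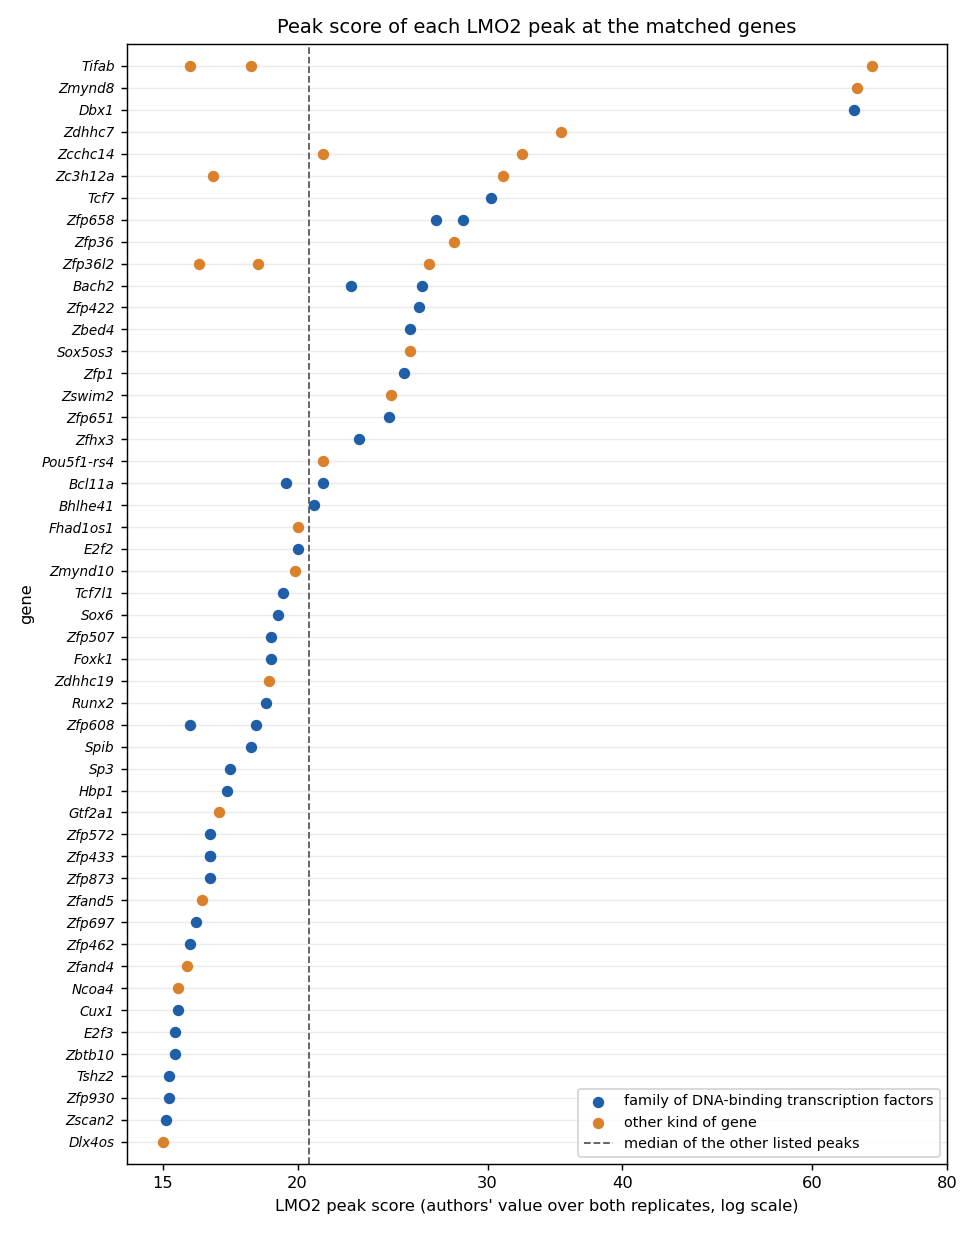
Peak score (x axis, log scale, the authors' value over both replicates) of 61 of the 62 LMO2 peaks, 1 row per gene (y axis, 50 genes, ordered by highest score). Blue points are genes of DNA-binding transcription factor families, orange points other genes, and the dashed line is the median of the other listed peaks, 20.5. The peaks of Tifab, Zmynd8 and Dbx1 stand alone above 60, and most rows lie left of the line. The 2 peaks of Zfp433 have the same score and cover each other.

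The 3 highest peaks were close together in score and far above the rest. The peak of Tifab, a gene that restrains signalling through TRAF6, scored 68.2 and ranked 54th of 1585. It lay outside any RefSeq gene, 14424 bp past the end of Tifab and 19.6 kb from the TSS of the list. The peak of Zmynd8, a reader of acetylated histones, scored 66.0 and ranked 57th, in intron 20 of the gene. The peak of Dbx1, a homeobox gene known from interneurons of the neural tube, scored 65.6 and ranked 58th. It was annotated to exon 3 of 4, and 134 of its 207 bases were coding. None of the RUNX, ETS and bHLH words marked above was common to the 3. The Tifab peak held 1 RUNX word at -89.5 bp from its centre (negative is towards the lower coordinate). The Zmynd8 peak held 2, of which 1 was at -2.5 bp, and the Dbx1 peak held none of the 3 words. A related E-box, CAGGTG, is not marked in the printed sequences. It is present at Zmynd8 and, read on the other strand as CACCTG, at Dbx1, but not at Tifab.

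No peak scored between 65.6 and 35.1. The latter belonged to Zdhhc7 and ranked 240th. It was 30967 bp past the end of that gene and inside intron 14 of Crispld2. It was the only one of the 62 that had a score of at least 30 and all 3 words. At Zcchc14 the peaks scored 32.3 and 21.1, both in intron 1 and 7124 bp apart. At Zc3h12a, which encodes a nuclease that degrades inflammatory mRNAs, 1 peak scored 31.0 just past the gene end (169 bp from it) and another scored 16.7, 49.1 kb upstream of the TSS. The remaining peak above 30 was that of Tcf7 at 30.2. Of the 7 genes with such a peak, 2 (Dbx1 and Tcf7) belonged to DNA-binding families. The first 10 peaks were completed by both peaks of Zfp658, at 28.5 and 26.9, and that of Zfp36 at 27.9.

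Of 77 regulators of blood and lymphoid cells on a chosen list, 21 had a listed peak. The peak list names 1167 genes, and the share of all annotated genes with a peak was not computed. The count of 21 is therefore not read as many or few. Among these 21, 6 genes with 8 peaks were matched by the description terms. Another 15 (Egr1, Elf1, Erg, Fli1, Gfi1, Klf2, Klf13, Lef1, Lyl1, Maf, Mef2c, Mycn, Nfe2, Tox and Tox2) had peaks, but their descriptions lack the terms or, for Lyl1, the rule also leaves the gene out. The remaining 56 had no peak annotated to them. The matched genes are thus a part, not the whole, of the transcription factor genes in the list.

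The 8 peaks at the 6 regulators scored from 18.1 to 30.2, and all but that of Tcf7 were below 30. Tcf7 encodes TCF1, an HMG box factor of early T cells that responds to Notch signalling. Its peak lay 35.6 kb upstream of the TSS, with bHLH words at -65.5 and 33.5 bp from the centre. Its RUNX word, at -98.5 bp, crossed the edge of the central 200 bp window. Bach2, a basic leucine zipper repressor of lymphocytes, had peaks scoring 26.1 and 22.4 that were 85.6 kb apart. The list calls both intergenic, 73.5 kb and 159.1 kb upstream of a TSS. By RefSeq both lie inside the gene (chr4:32238413-32586109, plus strand), 105530 bp and 19919 bp from its outermost start. Bcl11a, a C2H2 zinc finger gene needed for lymphoid progenitors, had peaks at 21.1 and 19.5 that were 42.7 kb apart and beyond the gene end, inside the non-coding genes Gm12066 and Gm33440.

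The other 3 regulators had 1 peak each. E2f2, a cell cycle factor, had a peak of 20.0 in intron 1, with an ETS word at 65.5 bp from the centre. Runx2, the runt factor of bone-forming cells and a relative of Runx1, had a peak of 18.7 in intron 2, with 2 ETS words side by side on opposite strands and no RUNX word. Spib, an ETS factor of B cells and plasmacytoid dendritic cells, had a peak of 18.1. It lay 2.38 kb upstream of the TSS and inside exon 22 of the neighbour Pold1, the catalytic subunit of DNA polymerase delta. Over the 8 peaks, ETS words were present at Bach2, Bcl11a, E2f2, Runx2 and Spib but not at Tcf7, and RUNX words at Tcf7 and Bcl11a.

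By family, C2H2 zinc fingers were the most frequent among the matched peaks, with 21 peaks at 17 genes. The terms shape this order, since zinc finger is itself a term. Factor genes such as Lef1, Tox, Erg and Fli1 had listed peaks that the terms did not match. Family counts over the whole list were not made, so the order is not read as a trait of LMO2 peaks. Most of these genes are of the large Zfp set, many of whose members have no well-described function. Their scores ran from 15.1 to 28.5 with a median of 16.6, and 0 of the 21 reached 30. Of these peaks 14 were intergenic and 6 were in introns. The bHLH word was present in 11 of the 21, the RUNX word in 9 and the ETS word in 8, against 33.3%, 55.3% and 51.6% of the other listed peaks. The 21 include 3 peaks of Zfp433 and Zfp873 in repeated sequence, which hold none of these words. The differences were not tested, and these counts do not describe a trait of the family.

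Among the smaller DNA-binding families, the HMG box genes Tcf7, Tcf7l1, Sox6 and Hbp1 had 1 peak each, from 17.2 to 30.2. The homeobox genes were Dbx1 at 65.6, Zfhx3 at 22.8 and Cux1 at 15.5, the last 2 in introns. The E2F genes E2f2 and E2f3 scored 20.0 and 15.4. Bhlhe41, a circadian repressor and the only bHLH gene matched, scored 20.7 in a SINE element, and Foxk1, the only true forkhead gene, scored 18.9. Zbed4, with a BED zinc finger, scored 25.4. No family other than the C2H2 genes held more than 4 peaks among the DNA-binding families, so family medians rest on few peaks.

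Outside those families the CCCH genes were the largest group, with 6 peaks at 3 genes. ZFP36 and ZFP36L2 bind AU-rich elements of mRNAs and promote their decay. The peak of Zfp36 scored 27.9 at 3.91 kb upstream of its TSS. Zfp36l2 had 3 peaks, scoring 26.5, 18.4 and 16.2, all in the non-coding gene Gm41640 downstream of it, and 2 of them were 1051 bp apart. Across the 6 peaks of the CCCH genes, 4 had the ETS word, 4 had the bHLH word and 0 had the RUNX word. Of the other listed peaks, 51.6%, 33.3% and 55.3% had these words. With 6 peaks, 3 of them at Zfp36l2, these counts do not describe a trait of the family. Ncoa4, a nuclear receptor coactivator gene whose product is also the receptor for ferritin breakdown, had a peak of 15.5 with the RUNX word.

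Most genes had a single peak. Of the 51 genes, 42 had 1 peak, 7 had 2 and 2 had 3 (Tifab and Zfp36l2), and 0 had 4 or more. The share with at least 2 was 17.6% (9 of 51, 9.57 to 30.3), close to the 19.4% (216 of 1116, 17.1 to 21.8) of the genes of the other peaks, which had up to 7. The spacing within a gene ran from 1051 bp at Zfp36l2 and 1390 bp at Zfp658 to 85.6 kb at Bach2, leaving aside Zfp433. At Tifab the peaks of 68.2, 18.1 and 15.9 lay in this order towards the gene, 3747 bp and 10236 bp apart.

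Peaks at these genes seldom had another listed peak nearby. A listed peak within 50 kb was found for 13 of the 62 (21.0%, 12.7 to 32.6) and for 629 of 1522 other peaks on assembled chromosomes (41.3%, 38.9 to 43.8). In 12 of the 13 the nearest peak belonged to the same gene, namely at Tifab, Zfp36l2, Zcchc14, Zfp658 and Bcl11a, and the other case was Zfp1, whose nearest listed peak was annotated to Ldhd. Repeated sequence was more frequent among the other peaks. Without it, the shares were 22.0% and 36.3%. Whether repeats or the choice of genes had a part in the difference was not tested.

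By the annotation in the list, 33 of the 62 peaks were intergenic (53.2%, 41.0 to 65.1), 20 lay in introns (32.3%, 22.0 to 44.6), 5 in promoters (8.06%, 3.49 to 17.5), 2 in exons and 2 at transcript ends. Among the other peaks, 48.3% were intergenic, 38.4% in introns and 7.94% in promoters, and each of these shares lay within the interval at the matched genes. The median distance to a TSS was 25.4 kb (11.6 to 43.3) against 18.5 kb (16.9 to 19.8). Beyond 50 kb lay 21 of the 62 (33.9%, 23.3 to 46.3) and 24.2% (22.1 to 26.4) of the others. Peaks at DNA-binding families had a median distance of 35.1 kb (19.7 to 67.2, 37 peaks) and those at the other kinds of gene 15.9 kb (6.13 to 30.7, 25 peaks). The farthest were those of Foxk1 at 361.4 kb, Zfp462 at 233.1 kb and Bcl11a at 162.4 kb.

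**Figure D2:**
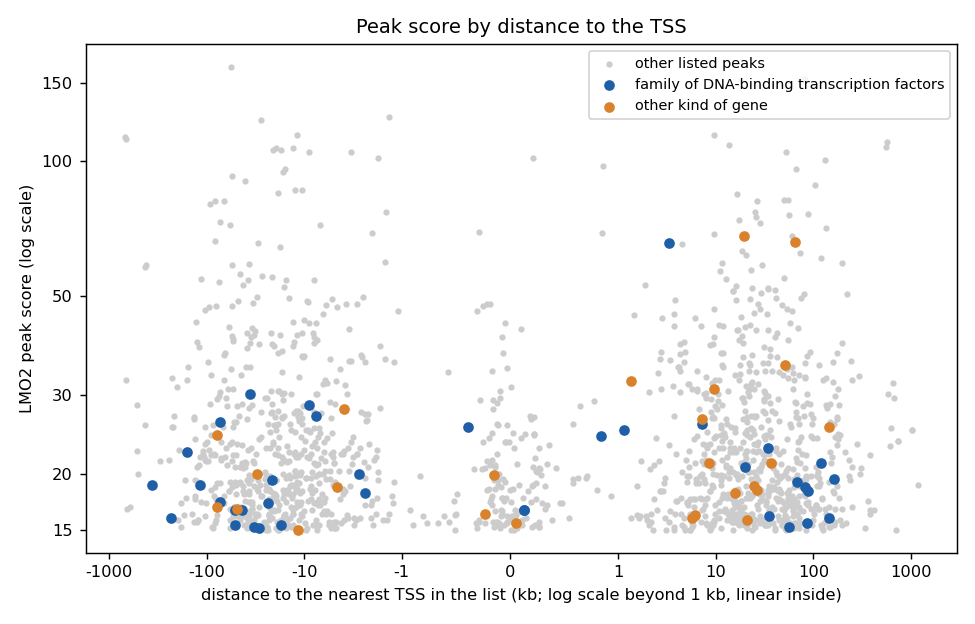
Peak score (y axis, log scale) against the signed distance to the nearest TSS in the list (x axis, kb, log scale beyond 1 kb on either side; negative is upstream). Blue and orange points are the 62 peaks at genes of DNA-binding families and at other genes, and grey points are the other listed peaks. The 7 peaks within 1 kb of a TSS score at most 25.4, and the 3 peaks above 60 all lie on the downstream side.

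Within 1 kb of a TSS there were 7 peaks (11.3%, 5.58 to 21.5, against 10.8% of the others). Their scores were low, from 15.5 to 25.4. Zbed4 scored 25.4 at 389 bp upstream, and Zfp651 scored 24.3 at 835 bp downstream. Zmynd10, needed to assemble the motors of cilia, scored 19.9 at 150 bp upstream and had the highest focus ratio of the 62 peaks, 0.887. Zfp433 had 2 peaks of 16.6 at 133 bp, Zfand5 scored 16.3 at 231 bp upstream and Ncoa4 15.5 at 55 bp downstream. The peaks of Zbed4, Zfand5 and Zfp433 held none of the 3 words, so 3 of the 7 peaks had at least 1.

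The annotated gene was often not the gene that the peak lay in. By RefSeq, 21 of the 62 peaks lay inside their annotated gene (33.9%, 23.3 to 46.3), 20 inside another gene (32.3%, 22.0 to 44.6) and 21 in no gene. The other gene was protein-coding for 8 peaks. They were Crispld2 for Zdhhc7, Fhad1 for Fhad1os1, the adhesion gene Sdk1 for Foxk1, Pold1 for Spib, the protein kinase A subunit gene Prkar2b for Hbp1, Ston2 for Gtf2a1, Lzts1 for Zfp930 and Gm32687 for a peak of Zfp433. For the other 12 it was a non-coding gene or pseudogene. Among the other listed peaks, 28.8% (26.6 to 31.2) lay in another gene than their annotated gene. Annotation to the nearest TSS does not show which gene a peak acts on, and no expression was measured in these samples.

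The sequence words were counted in 200 bp windows at the peak centres, and the same count over the other listed peaks stands beside each. The RUNX word was present in 28 of 62 windows (45.2%, 33.4 to 57.5) against 55.3% (52.8 to 57.8) of the 1522 others. The ETS word was present in 29 (46.8%, 34.9 to 59.0) against 51.6% (49.1 to 54.1). The bHLH word was present in 28 (45.2%, 33.4 to 57.5) against 33.3% (31.0 to 35.7). For each of the 3 words the intervals of the 62 and of the other peaks overlap. The order of the words depends on how they are counted. In 100 bp windows at these genes RUNX was in 19.4% and bHLH in 29.0%. With wider words (TGTGGT or TGCGGT for RUNX, CTTCC for ETS, CAGCTG or CAGGTG for bHLH) the shares were 51.6%, 74.2% and 66.1%, against 62.02%, 75.2% and 52.3% of the other peaks. The GATA words AGATAA and TGATAA were present in 8 (12.9%, 6.69 to 23.4) against 16.2%.

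**Figure D3:**
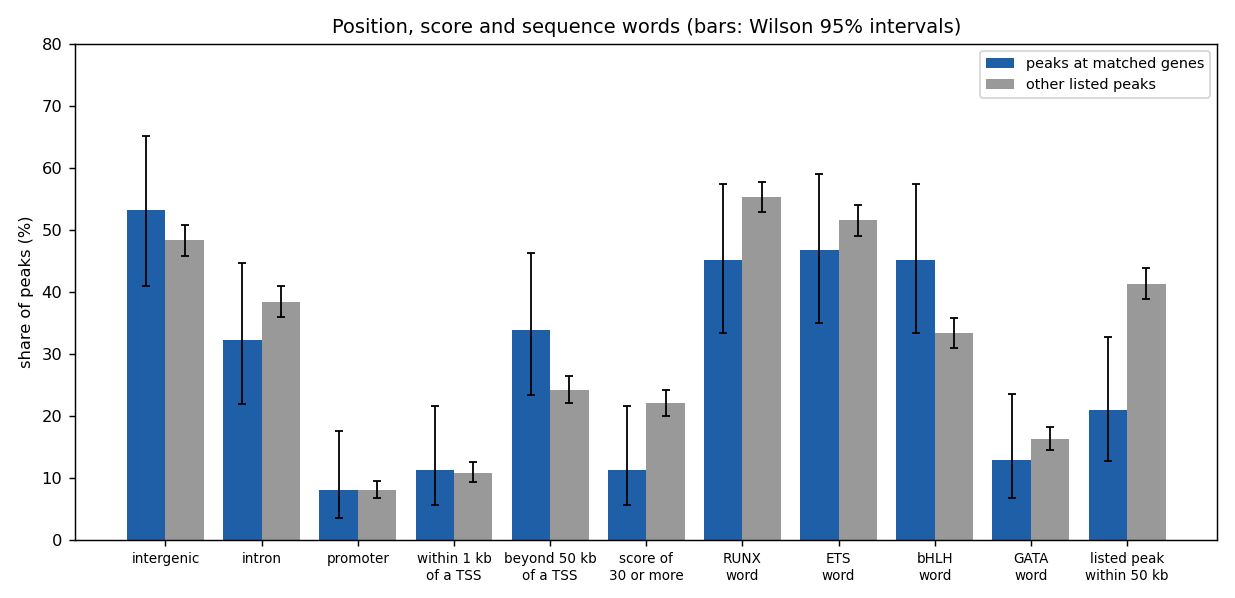
Share of peaks (y axis, %) by position, score, sequence word and nearness of another listed peak (x axis), for the 62 peaks at matched genes (blue) and the other listed peaks (grey, 1522 or 1523). Bars are shares and whiskers Wilson 95% intervals, which cover counting error only. The blue share is lower for a listed peak within 50 kb (21.0% against 41.3%) and higher for the bHLH word (45.2% against 33.3%), where the whiskers overlap.

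The shares of words at these genes differed by distance, untested. Within 50 kb of a TSS the RUNX word was in 14 of 41 windows (34.1%, 21.6 to 49.5), against 54.9% (52.0 to 57.7) of the other peaks at this distance. Beyond 50 kb it was in 14 of 21 (66.7%, 45.4 to 82.8), against 56.8% (51.7 to 61.8). The ETS word moved like RUNX in number, with 16 of 41 (39.0%, 25.7 to 54.3) within 50 kb and 13 of 21 (61.9%, 40.9 to 79.2) beyond. The other peaks had 52.2% and 49.7%. The bHLH word went the other way in number, with 20 of 41 (48.8%, 34.3 to 63.5) within 50 kb and 8 of 21 (38.1%, 20.8 to 59.1) beyond. The other peaks had 33.8% and 31.8%. Intervals of the nearer and the farther peaks overlap for each of these words.

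Of the 62 windows, 7 held all 3 words (11.3%, 5.58 to 21.5), 17 held 2, 30 held 1 and 8 held 0. Among the others 8.67% held all 3, 38.4% held 2, 37.3% held 1 and 15.6% held 0. The 7 peaks were at Zdhhc7, Zswim2, Pou5f1-rs4, Bcl11a, Foxk1, Zfp608 and Zfp572. Their scores, from 16.6 to 35.1 with a median of 19.5, were near the median of 18.9 for all 62. Scores also differed little by single word: the median was 19.3 with the RUNX word and 18.55 without it, 18.7 and 19.2 for ETS, and 19.2 and 18.7 for bHLH. RUNX alone was present in 12 windows, and bHLH alone and ETS alone in 9 each. Single combinations were not counted in the other listed peaks, so no order is read from these numbers.

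**Figure D4:**
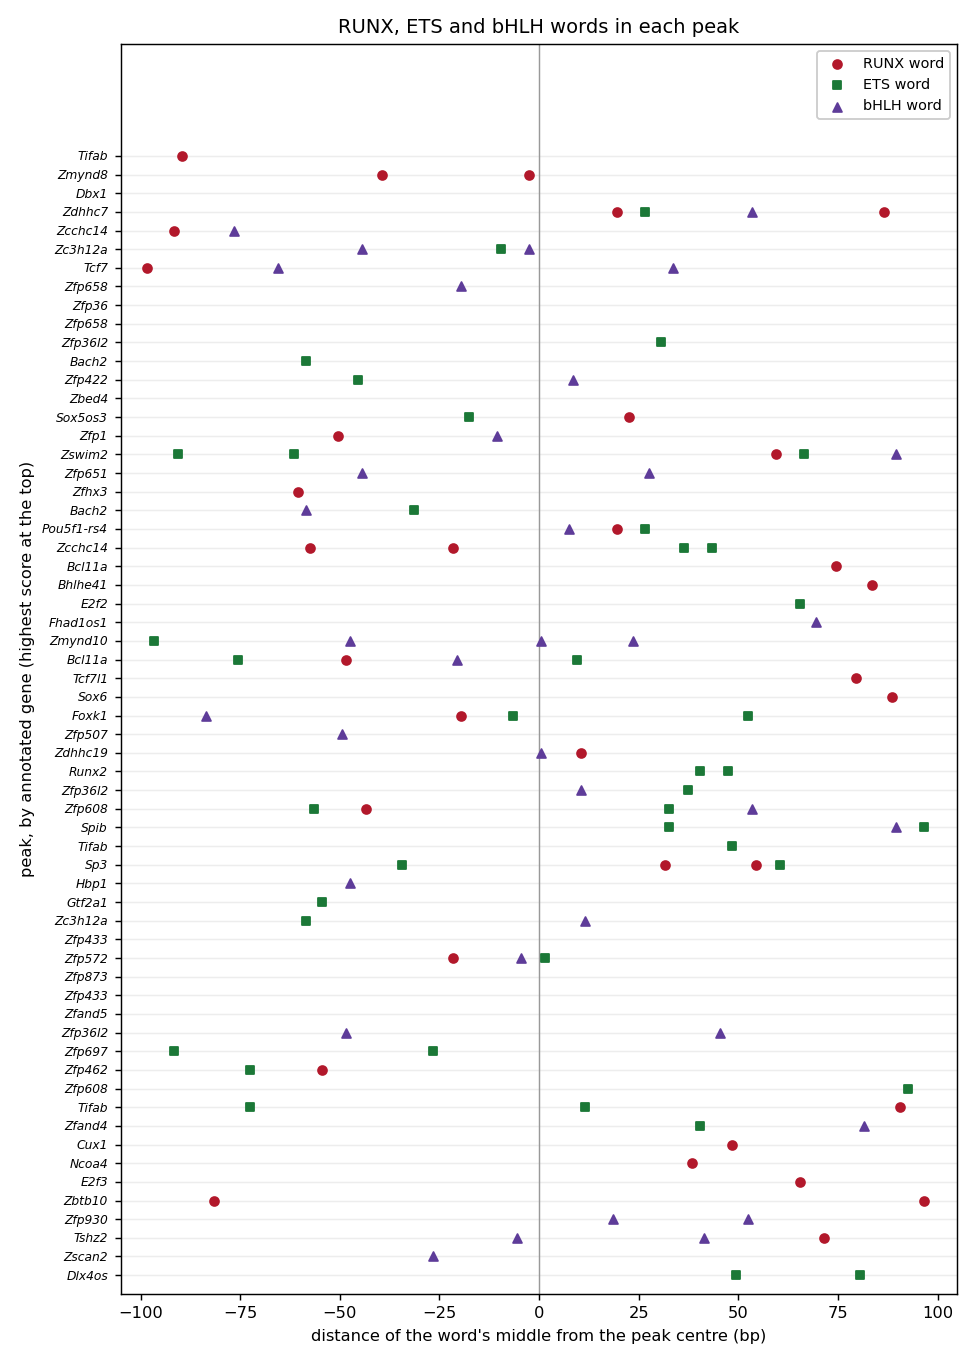
Position of each RUNX (red circle), ETS (green square) and bHLH (purple triangle) word relative to the peak centre (x axis, bp) in 61 of the 62 peaks (y axis, 1 row per peak by annotated gene, highest score at the top). Within 50 bp of the centre lie 25 of the 36 purple triangles and 14 of the 33 red circles. In the other listed peaks 60.6% of bHLH words and 61.0% of RUNX words lie there.

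Where the words lay in the peaks differed between them. Of 36 bHLH words in the 62 peaks, 25 (69.4%, 53.1 to 82.0) were within 50 bp of the centre, with a median distance of 43 bp. Of 36 RUNX words, 15 (41.7%, 27.1 to 57.8) were, with a median of 56 bp. The intervals of the bHLH and RUNX words overlap. In the other listed peaks the shares were 60.6% (56.7 to 64.3) for bHLH and 61.0% (58.2 to 63.7) for RUNX. The ETS words were alike in both, with 56.1% (41.0 to 70.1) and 55.7% (52.8 to 58.6). Words of the same peak are not independent, so these intervals are too narrow, and the differences were not tested. At the highest Tifab peak and at Tcf7, Sox6, Bhlhe41 and Tcf7l1, for example, the RUNX word lay far from the centre, as the printed sequences of Tifab and Tcf7 show near their first bases. These examples were chosen after their values were seen.

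Of the 62 peaks, 7 lay in annotated repeat elements (11.3%, 5.58 to 21.5, against 15.4% of the others), and 3 lay in repeated sequence, where at least 50% of the 50 bp stretches of the window have a further copy in the assembly (4.84%, 1.66 to 13.3, against 12.2%). The 3 were the pair of Zfp433 and the peak of Zfp873 on chromosome 10. The windows of the pair were identical, and that of Zfp873 shared 97.4% of its 50 bp stretches with them. All 3 scored 16.6, with focus ratios of 0.620, 0.633 and 0.618, and the median number of copies of their stretches was 3. The list gives both Zfp433 peaks the same distance of 133 bp, although by RefSeq they are 159.1 kb apart and the farther one lies in Gm32687. Per the methods, reads that matched a limited number of places were kept in mapping. How such reads entered the scores is not given in the sources used here, so the 3 peaks may not be independent. Counted as 1, they would leave 60 peaks.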

How the data were processed

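ChIP-seq of LMO2 in pro-B(+) cells (2 ChIP, 2 input samples) was analysed from the deposited list of reproducible peaks. Per the labels and the methods, the authors mapped reads to mm10 with Bowtie 1.1.1, letting a read match several places, called peaks with HOMER against input, kept those reproducible by IDR with a score of at least 15, and annotated them. The labels and the methods give different read lengths. The deposited peak score is HOMER's normalized score over both replicates, of unstated scaling. The focus ratio, as deposited, is a fraction, and the distance to the TSS is in bp. Depth is unknown from the list.

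Peaks were chosen by gene description, and the members, the families and the list of 77 regulators were chosen with earlier results of these data known. Named genes are those of the 10 highest peaks, of 4 or more peaks (0 genes), of the regulator list, of the 5 highest peaks within 1 kb of a TSS, of the 3 farthest peaks, and of peaks with all 3 words and a score of at least 30; others were named to describe families and positions after their values were seen. All 62 peaks lay on assembled chromosomes; 1 peak and some sequences enter the counts but are not reported singly here. Sequences, gene positions and gene types came from RefSeq on GRCm38.p6 (all 51 genes matched by identifier), and words were searched on both strands. Windows with at least 50% of their 50 bp stretches present again on the assembled chromosomes counted as repeated. Intervals of medians are binomial order-statistic intervals. The word search was tested on simulated windows: 1500 of 1500 planted words were found. No cell type markers could be checked, since binding does not measure expression. Scripts ran in Python 3.11.15 with pandas 2.3.3, numba 0.67.0, SciPy 1.17.1, NumPy 2.4.6 and, for figures, matplotlib 3.10.9.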

Additional observations from a re-analysis of the deposited data

How the results depend on the processing

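No paired analysis was possible because each peak carries a single value over both replicates, which also means that neither replicate could be left out. Of 79 values under other settings, 60 stayed within the interval of the main value or, for counts, within 1.5 times, and 19 moved further. With a minimum score of 30, 7 peaks at 7 genes remained, with a median score of 35.1; 28.6% were intergenic, 0% in promoters and 0% within 1 kb of a TSS, 0% of genes had at least 2 peaks, and the ETS and GATA words were in 28.6% each. With DNA-binding families alone, 37 peaks at 32 genes remained. Within 50 kb of a TSS, 41 peaks at 33 genes remained, with the GATA word in 4.88%. In 100 bp windows the RUNX word was in 19.4%, ETS in 30.6% and bHLH in 29.0%. With wider words, ETS (CTTCC) was in 74.2% and bHLH (CAGCTG or CAGGTG) in 66.1%. Keeping the left-out genes or leaving out annotated repeats or repeated sequence (the last chosen after seeing the data) moved no value beyond these limits, although the median score with the left-out genes kept, 20.35, lay near the 20.5 of the other peaks. The bHLH share beside that of the other peaks was 57.1% and 33.8% at a score of at least 30 (7 peaks), 41.8% and 34.7% without repeat elements, 47.5% and 36.2% without repeated sequence, and 48.8% and 33.8% within 50 kb. These sets overlap, are no independent support, and were not tested. The list holds no read counts, so depth limits are unknown.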
